A study of Homo sapiens with 40 samples.

Results

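Gene desert bins are windows of 25 kb on hg38 whose edges lie 500 kb or more from the body of every protein-coding RefSeq gene. They were taken from 18 autosomes (chromosomes 2, 3, 5 to 17 and 20 to 22). Members were chosen by position and by measured values together, since a bin also had to overlap a peak in at least 1 of 30 H3K27me3 lists. That left 2775 bins of the 11789 that met the position rule (23.5%), out of 91849 bins on these autosomes. The score of a bin is the percent of its length inside merged peaks, and each library has 1 score per bin.

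H3K27me3 is the histone mark that Polycomb repressive complex 2 writes and that goes with silent chromatin. In most cells it is strongest over CpG-rich promoters of developmental genes, and thin stretches of it also lie over intergenic chromatin. NSD2 writes H3K36me2, a mark of broad intergenic domains that hinders Polycomb repressive complex 2 on the same histone tail. Gene deserts are long stretches without protein-coding genes, and many flank genes of development and carry their distant enhancers.

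KMS-11 is a myeloma cell line of human origin whose t(4;14) translocation drives NSD2 expression from the immunoglobulin heavy chain locus. CUT&Tag, in which a transposase bound to the antibody cuts DNA beside the mark, was run on 50000 nuclei with 13 PCR cycles. The groups were NSD2 knockout (KO) clones 3 and 12, set against the KO parental line, and NSD2-dTAG clones 8 and 11 at days 0, 7, 14 and 21 of dTAGV-1. dTAGV-1 leads a protein that carries the dTAG domain to degradation, and 100 nM is stated for the dTAG cells. The untagged line used for dTAG engineering was sampled at the same days, with no dose stated. Every group had 2 libraries, and each KO or dTAG line is 1 clone. Whether the parental libraries came from separate cultures is not stated, and p-values that use them measure a spread that may be technical.

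Sequence is shown for the promoters of long noncoding RNA (lncRNA) genes inside these bins, because they are the transcribed starts that a desert holds. RefSeq promoter windows (GRCh38.p14) run from 250 bases before to 50 after the start. The 3 shown are the window of MIR4458HG, tied with that of LINC02226 for a peak in the most lists, and the windows with the largest KO difference, of LINC02295 and LOC105379102. CG pairs are in capitals. They lie at chr5:8457437-8457736 (plus strand), chr14:98135737-98136036 (plus strand) and chr5:101678679-101678978 (minus strand).
MIR4458HG: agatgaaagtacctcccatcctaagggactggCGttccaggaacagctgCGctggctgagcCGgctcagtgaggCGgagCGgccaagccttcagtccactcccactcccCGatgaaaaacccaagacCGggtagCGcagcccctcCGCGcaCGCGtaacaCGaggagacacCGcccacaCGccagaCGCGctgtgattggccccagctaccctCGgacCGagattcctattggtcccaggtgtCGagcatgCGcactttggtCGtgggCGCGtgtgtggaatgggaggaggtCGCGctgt
LINC02295: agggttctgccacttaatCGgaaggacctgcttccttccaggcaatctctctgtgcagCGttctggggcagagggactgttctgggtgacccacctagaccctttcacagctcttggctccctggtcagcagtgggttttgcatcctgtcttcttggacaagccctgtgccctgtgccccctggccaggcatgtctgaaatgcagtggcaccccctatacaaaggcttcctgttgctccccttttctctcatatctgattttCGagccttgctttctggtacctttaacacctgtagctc
LOC105379102: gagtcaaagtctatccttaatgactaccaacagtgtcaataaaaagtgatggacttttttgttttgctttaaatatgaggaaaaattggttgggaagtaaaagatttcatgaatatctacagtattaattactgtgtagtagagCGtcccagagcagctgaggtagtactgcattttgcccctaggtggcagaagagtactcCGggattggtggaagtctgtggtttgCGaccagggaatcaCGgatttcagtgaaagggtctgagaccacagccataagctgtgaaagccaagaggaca

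MIR4458HG, the host gene of a microRNA, had 26 CG pairs in its window and a GC content of 63.3%. A peak lay in the window in 27 of 30 lists, and its bin is 549 kb from the nearest coding gene, in the desert between MTRR and SEMA5A. The 4 KO libraries covered it by 100%, against 85.3% and 0% in the KO parental libraries. The dTAG parental libraries covered it by 68.7% to 100%. At day 0 the dTAG clones covered it by 100% and 0% (clone 8) and 100% and 91.3% (clone 11). At day 21 they covered it by 91% to 100%. This window was thus covered in most libraries with NSD2 too. LINC02295 had 3 CG pairs and was covered by 88.3%, 99%, 100% and 100% in the KO libraries and by 0% in both KO parental libraries. LOC105379102, with 4 CG pairs, was covered by 56.0%, 100%, 47.7% and 46.3% in the KO libraries and by 0% in both parental libraries. The windows of LINC02295 and LOC105379102 were chosen for that difference, so it is a description. In the dTAG clones LINC02295 was covered by 99.3%, 0%, 69.3% and 0% at day 21 and by 29.3% in 1 of 4 libraries at day 0, and dTAG parental day 0 replicate 1 was at 69%. LOC105379102 was covered in all 4 dTAG clone libraries at day 21 (49.3% to 61.0%), and in none of the 4 at day 0. The values of LINC02295 at day 21 and day 0 overlap.

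CG-poor starts were common among the promoter windows of the member bins. In all, 238 promoter windows lay in the bins, all of lncRNA genes, with a median of 2 CG pairs against 14 over all 34961 promoter windows. No background of lncRNA windows alone was taken, so gene type and position cannot be told apart here. CG, searched on 1 strand because it reads the same on the other, was present in 86.1% of the desert windows and 96.1% of all windows. At least 15 pairs were held by 10.5% of the desert windows and 49.0% of all. A peak in any list touched 57 of the 238 windows. Any KO library touched 38 and any KO parental library 8, of unequal numbers of libraries (4 and 2). Windows touched in any list had a median of 3 CG pairs, and the others 2.

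The lists differed in length, which bears on every value. They covered 36.1 to 168 Mb, and the background pileup of the peak caller, an estimate of depth solved from the peaks, was 0.922 to 3.26. The mark may be present in a bin where a shallow library has no peak. Desert length inside peaks was 0.108 to 1.87 Mb per library, held by 143 to 3141 peaks.

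Most members were seen in few lists. The median was 3 lists of 30, with 856 bins in 1 list, 876 in 2 to 4 and 1043 in 5 or more, and 39 bins had a peak in every list. Only KO or treated-clone libraries (16 of 30) had a peak in 2256 of the bins, only the other 14 libraries in 78, and both kinds in 441. These counts describe the choice of the members and are no test. The median bin had a mean of 0.187% inside peaks over the libraries, the highest 20.8%, and 335 bins reached 10% in at least 1 library. The median distance from a coding gene was 718 kb. Just inside the limit, at 500.02 to 500.153 kb, the 3 nearest had peaks in 1, 2 and 7 lists and KO means of 0.276%, 0% and 1.42%. Just outside, at 499.864 to 499.977 kb, the 3 nearest had peaks in 1, 10 and 3 lists and KO means of 0.238%, 6.59% and 0%.

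The KO comparison asked where the mark lies in clones without NSD2. All 4 KO libraries had a larger part of their called length in deserts than the KO parental libraries, but so few libraries cannot pass an exact test. The desert share is the percent of a library's called length on these autosomes that falls in desert bins, counted over all bins that meet the position rule. It was 1.48% and 1.39% in the libraries of KO clone 3, 1.07% and 0.970% in those of KO clone 12, and 0.518% and 0.434% in the KO parental libraries. Every KO library was above both parental libraries, and clone 3 was above clone 12. The means were 1.23% ± 0.246 (SD, n = 4) and 0.476% ± 0.0592 (SD, n = 2), 2.58 times as high. By an exact permutation test (two-sided) p was 0.0667, the smallest that 4 against 2 libraries allow, and 0.0952 after Benjamini-Hochberg adjustment over 10 tests.

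Desert length inside peaks differed more. It was 1.87, 1.43, 0.984 and 0.681 Mb in the KO libraries and 0.310 and 0.172 Mb in the KO parental libraries. As a percent of desert length this was 0.421% ± 0.177 (SD, n = 4) against 0.0818% ± 0.0330 (SD, n = 2), a ratio of 5.15 (exact permutation p = 0.133, adjusted 0.167). Background pileup was 2.04 to 2.84 in the KO clones and 1.5 and 2.58 in the KO parental line. At near-equal pileup, 2.46 in KO clone 12 replicate 1 and 2.58 in KO parental replicate 1, the desert shares were 1.07% and 0.518%. Within replicate number 1 the shares were 1.28% and 0.518%, and within replicate number 2 1.18% and 0.434%.

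**Figure D1:**
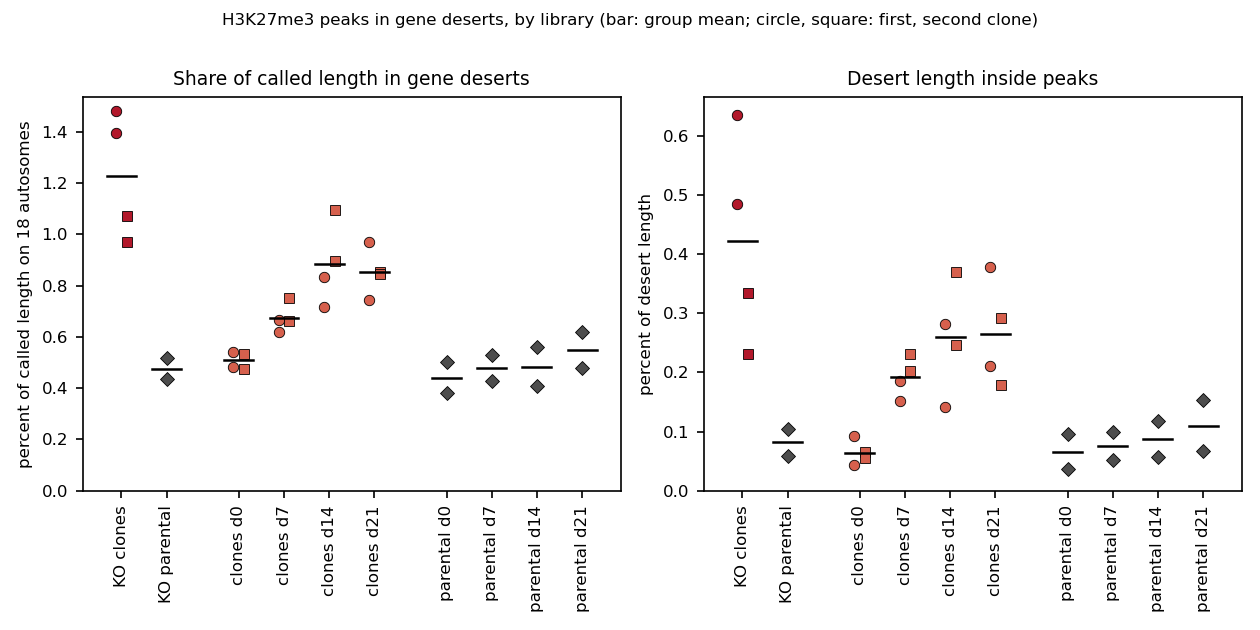
Share of called length in gene deserts (left, percent of called length on 18 autosomes) and desert length inside peaks (right, percent), 1 point per library, with bars at group means. Circles are KO clone 3 and dTAG clone 8, squares KO clone 12 and dTAG clone 11, diamonds parental lines; the 4 KO libraries sit at 0.970% to 1.48% share, above both KO parental libraries.

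The KO ratio grew with distance from genes. Called length was 1.70 times as long in KO clones as in the KO parental line over bins that overlap a coding gene, 2.45 times up to 100 kb away, 2.93 times at 100 to 250 kb and 3.32 times at 250 to 500 kb. Over deserts at 500 to 1000 kb it was 4.93 times, and beyond 1000 kb 6.27 times. The share of called length was below the parental value in bins that overlap a gene (62.5% ± 2.05 in KO clones and 71.9% ± 1.23 in the KO parental line) and lay above it in every class farther out. The 6 distance classes share the same libraries, and the differences between classes were not tested.

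The dTAG clones did not show that gradient at every step. Day 21 over day 0, the ratio of called length was 2.13 over genes, 3.37 up to 100 kb, 3.20 at 100 to 250 kb, 3.04 at 250 to 500 kb, 4.10 at 500 to 1000 kb and 4.26 beyond 1000 kb. The step into the deserts was upward, while the classes between 1 bp and 500 kb ran downward. In the untagged dTAG parental line the ratio rose at each step, from 1.32 over genes through 1.42, 1.48, 1.53 and 1.66 to 1.72. A rise with distance was therefore not particular to the KO clones, though it was smaller in the parental line.

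**Figure D2:**
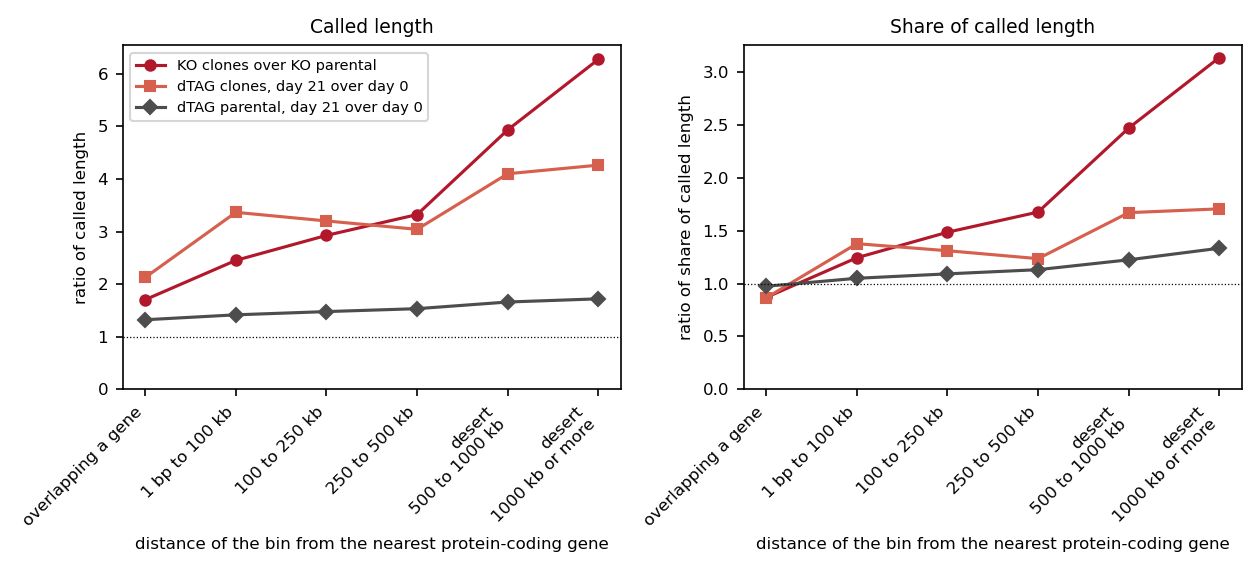
Ratio of mean called length (left) and of mean share of called length (right), by distance of the bin from the nearest protein-coding gene, for KO clones over KO parental, dTAG clones at day 21 over day 0 and the dTAG parental line at day 21 over day 0. The dotted line marks a ratio of 1. In both panels the KO line climbs at each step, to 6.27 and 3.14 beyond 1000 kb. The dTAG parental line climbs at each step too, to 1.72 and 1.34.

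The treated series asked how fast the mark moves once NSD2 is degraded. In dTAG clones 8 and 11 the desert share was already higher at day 7. It was 0.542% and 0.484% in clone 8 and 0.534% and 0.476% in clone 11 at day 0. At day 7 it was 0.620% and 0.664% in clone 8 and 0.753% and 0.663% in clone 11. Day 14 gave 0.834% and 0.717% in clone 8 and 1.09% and 0.896% in clone 11. Day 21 gave 0.970% and 0.745% in clone 8 and 0.855% and 0.846% in clone 11. Every treated library lay above all 4 day 0 libraries. Clone 11 was highest at day 14 and clone 8 at day 21. The rise at day 7 was not particular to deserts. Over day 0, the mean share was 1.33 times as high in deserts and 1.35 times at 1 bp to 100 kb from a gene. It was 1.27 times at 100 to 250 kb, 1.17 times at 250 to 500 kb and 0.882 times over genes. At day 14 the ratio was 1.74 in deserts and 1.37 at 1 bp to 100 kb. Differences between these classes were not tested.

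Means were 0.675% ± 0.0559 at day 7, 0.885% ± 0.158 at day 14 and 0.854% ± 0.0923 at day 21, against 0.509% ± 0.0339 at day 0 (SD, n = 4 each). Each of the 3 comparisons, which share the day 0 libraries, gave an exact two-sided permutation p = 0.0286, the smallest for 4 against 4, and 0.0476 adjusted over 10 tests. Percent of desert length inside peaks was 0.193% ± 0.0335 at day 7, 0.260% ± 0.0944 at day 14 and 0.265% ± 0.0897 at day 21, against 0.0642% ± 0.0216 at day 0, with the same p-values. Replicate 1 had the higher desert share in 14 of 15 groups. With the replicate number as a block, all 3 comparisons of either measure had an exact permutation p of 0.0556, the smallest that block allows, which ends the calls. Leaving out any 1 of the 4 day 0 libraries ended the day 14 calls of both measures, and leaving out any but clone 8 day 0 replicate 1 ended the day 21 call of covered percent (exact permutation p = 0.0571 in each case). Pileup was 1.61 to 2.84 at day 21 and 0.922 to 2.31 at day 0. At near-equal pileup, 2.35 in clone 8 day 21 replicate 2 and 2.31 in clone 8 day 0 replicate 1, the shares were 0.745% and 0.542%.

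Peak strength set a limit on both comparisons. Restricted to peaks whose −log10 q reached 5, the desert share at day 21 differed from that at day 0 by -0.00416 percentage points (exact permutation p = 0.886), where all peaks gave a difference of 0.345 points. The same restriction gave 0.0883 points at day 7 (exact permutation p = 0.0286) and 0.0614 points at day 14 (exact permutation p = 0.0571). In the KO comparison it gave a share difference of 0.132 points (exact permutation p = 0.333), where all peaks gave 0.752 points. With lists shortened to equal length the differences were 0.270 points for KO (exact permutation p = 0.133) and 0.0756 points for day 21 (exact permutation p = 0.171).

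Few desert peaks were strong by −log10 q, and a smaller share was in KO and day 21 libraries than in their controls. Their median width was 399.5 to 652.5 bp per library, against 550 to 834 bp for peaks elsewhere on these autosomes, and lower in all 30 libraries. The share of desert peaks that reached a −log10 q of 5 was 6.18% ± 1.03 over 4 KO libraries and 22.3% ± 5.17 over 2 KO parental libraries (SD). At day 21 it was 7.02% ± 2.45 and at day 0 22.0% ± 7.97 (SD, n = 4 each). The drop was not particular to deserts. Among peaks elsewhere the share was 12.0% to 15.2% in the KO libraries and 18.5% and 37.6% in the KO parental libraries. There it was 9.86% to 17.6% at day 21 and 16.7% to 39.3% at day 0, which overlap. The authors' fold enrichment over background had a median of 2.75 to 3.53 over the desert peaks of a library. For peaks elsewhere on these autosomes it was 2.66 to 3.27, and lower than in deserts in all 30 libraries.

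A desert peak in 1 replicate overlapped a peak of the other replicate of its group by at least 1 bp in 51.0% of cases on average (26.2% to 83.7% over the libraries). A KO parental peak overlapped 9.51% of the desert peaks of a KO library on average. In the other direction, 57.8% of the desert peaks of a KO parental library overlapped a peak of a KO library. List lengths differ, which bears on both shares.

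The untagged dTAG parental line gave the background of dTAGV-1 days. Its desert share was 0.617% and 0.479% at day 21 and 0.501% and 0.380% at day 0. Means were 0.548% ± 0.0978 and 0.441% ± 0.0855 (SD, n = 2 each), with an exact permutation p = 0.667 where 0.333 is the smallest possible. The groups overlap, and the deeper library of each day was the higher one, with pileup of 3.26 and 1.48 at day 21 and 2.22 and 1.11 at day 0. At fold enrichment of at least 4 the parental share difference turned to -0.0866 points, and with lists of equal length to -0.0260 points.

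Single bins were tested with limma on covered percent over all 49812 bins of chromosomes 1 to 22 and X that had a mean of 1% to 99%. Of the 2775 members, 551 had such a mean and entered, and the rest were too sparse to test. Gained means higher at an adjusted p under 0.05. In the KO clones 281 members (10.1%) gained and 12 (0.432%) lost, beside 37.3% of all tested bins that gained and 0.522% that lost. At day 21 in the dTAG clones 262 (9.44%) gained and 15 (0.541%) lost, beside 51.6% and 0.367% of all tested bins. The members' percents count untested bins too, so they cannot be set against the background as like for like. Among the 551 tested members 281 gained and 12 lost in KO clones, beside 18575 and 260 of the 49812 tested bins. At day 21 it was 262 and 15, beside 25698 and 183. Lost bins were thus a larger part of the tested members than of all tested bins in both comparisons. Gained bins were a larger part in KO clones and a smaller part at day 21. Entry itself rested on the gaining groups, since 374 of the 551 averaged under 1% in the 14 libraries of the parental lines and untreated clones.

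The 177 bins gained in both comparisons were 63.0% of the KO list and 67.6% of the day 21 list, beside 76.3% and 55.1% for the gained lists over all tested bins. Members entered the test largely through the gaining groups of both comparisons, so these shares are a description. The 6 bins lost in both were among 12 in the KO list and 15 in the day 21 list. Without 1 KO parental library the KO gained count was 147 (replicate 1 left out) or 130 (replicate 2), and without clone 8 day 21 replicate 1 the day 21 count was 171. Without KO parental replicate 1 the KO lost count was 2, and without clone 8 day 0 replicate 1 the day 21 lost count was 9.

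In the dTAG parental line limma called 0 members gained and 0 lost at day 21, as in all tested bins (0% in both directions), and 7 and 0 had an unadjusted p under 0.05. The change of the clones minus that of the parental line was itself tested. It was higher in 13 members and lower in 1 (30 and 7 with the replicate block), beside 3.39% and 0.0582% of all tested bins. That count was 0 without either library of the parental line at either day, so it rests on each of those 4 libraries.

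Neighbouring desert bins form runs, named here by the coding genes on either side. There were 237 runs, 210 of them with a member, with a median length of 0.600 Mb. In KO clones the mean was higher than in the KO parental line in 184 runs and lower in 17. At day 21 it was higher than at day 0 in 160 runs and lower in 21, and 152 runs were higher in both comparisons. The 10 runs that added most held 42.9% of the 1.00 Mb that KO clones added and 56.8% of the 0.592 Mb added at day 21. Both totals are net of the runs that fell. The 10 runs were picked on the added length, and their part of the desert bins was not set beside it.

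The runs described next each hold a bin named for a large gain, so their direction was fixed by that choice. The desert between TBL1XR1, a subunit of a transcriptional corepressor, and KCNMB2, a potassium channel subunit, lies on chromosome 3 (177725001 to 178025000). It was 12.2%, 10.8%, 5.66% and 3.65% inside peaks in the KO libraries and 0% in both parental libraries. At days 7, 14 and 21 the dTAG clones averaged 2.97% ± 1.21, 7.34% ± 2.21 and 7.56% ± 3.16 (SD, n = 4), against 0% in all 4 day 0 libraries. All 8 dTAG parental libraries were at 0%. The most covered bin (177800001 to 177825000) overlaps the lncRNA gene LINC02015. It was at 23.8%, 16.5%, 10.5% and 11.3% in the KO libraries and 0% in both KO parental libraries, a difference of 15.5 percentage points with SE 2.62 (limma adjusted p = 0.000312).

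The desert between RNF144A, a ubiquitin ligase, and ID2, an inhibitor of basic helix-loop-helix factors, spans 23 bins on chromosome 2 (7600001 to 8175000). It was 11.5%, 8.18%, 5.07% and 3.51% covered in the KO libraries and 1.08% and 0.394% in the KO parental libraries. A peak lay in all 4 KO libraries in 16 of its 23 bins, and in any KO parental library in 3. Its bin at 8150001 to 8175000, in the lncRNA gene LINC00299, was at 26.1%, 13.5%, 12.1% and 6.74% in the KO libraries and 0% in both parental libraries (limma adjusted p = 0.000469). The run averaged 4.66% ± 1.25, 6.07% ± 1.09 and 6.40% ± 2.74 at days 7, 14 and 21, against 0.699% ± 0.116 at day 0 (SD, n = 4 each).

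On chromosome 8 gains lay between MYC, the proto-oncogene of cell growth, and GSDMC, a pore-forming gasdermin. Over 128250001 to 129200000 this desert was 4.18%, 4.59%, 3.53% and 3.04% covered in the KO libraries and 0.449% and 0.563% in the KO parental libraries. A single stretch of 11 adjacent bins, 275 kb, had a peak in all 4 KO libraries, and no other bin of the 38 did. The bin at 128450001 to 128475000, which overlaps LINC00824, was at 15.3%, 23.9%, 12.8% and 11.7% in the KO libraries and 0% in both parental libraries (limma adjusted p = 2.86e-05). Restricted to peaks whose −log10 q reached 5, the KO difference of this bin was 0. The run reached 3.26% ± 0.805 at day 21, against 0.668% ± 0.211 at day 0 (SD, n = 4 each), and 1.24% ± 0.397 in the dTAG parental line at day 21 (SD, n = 2).

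Farther along, the desert between KHDRBS3, an RNA-binding protein, and FAM135B was nearly all members, 57 of 58 bins. It was 7.75%, 6.13%, 3.10% and 2.30% covered in the KO libraries and 0.184% and 0.196% in the KO parental libraries. Both libraries of clone 3 were above both of clone 12 here, as in the TBL1XR1 and RNF144A deserts. Days 7, 14 and 21 averaged 1.41% ± 0.466, 2.82% ± 0.990 and 2.97% ± 0.697, against 0.172% ± 0.0420 at day 0 (SD, n = 4 each). Of its 37 tested bins limma called 31 gained in KO clones and 22 at day 21, beside 37.3% and 51.6% of all tested bins.

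The desert between VRK1, a nuclear kinase, and BCL11B, a transcription factor of T cell development, held 50 members in 50 bins on chromosome 14 (97400001 to 98650000). It was at 8.11%, 4.82%, 3.72% and 3.07% in the KO libraries and 0.508% and 0.362% in the KO parental libraries. The LINC02295 promoter printed above lies in it. At day 7 the dTAG clones averaged 3.93% ± 0.813, close to the 4.76% ± 1.26 of day 14 and 4.73% ± 1.77 of day 21, against 0.465% ± 0.101 at day 0 (SD, n = 4 each). Bins with a peak in all 4 KO libraries were scattered along it, 24 in all with no more than 4 in a row.

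Some runs with a named bin span few bins, so the bin chosen for its gain weighs heavily in their mean. Between CD83, a surface marker of activated dendritic and B cells, and JARID2, a cofactor of Polycomb repressive complex 2, 3 bins on chromosome 6 were at 15.0%, 13.4%, 6.29% and 7.67% in the KO libraries. Both KO parental libraries were at 0%. The bin at 14650001 to 14675000 was called in both comparisons, at 16.2%, 7.52%, 18.7% and 14.1% at day 21 and 0% in the 4 day 0 libraries (limma adjusted p = 6.52e-05). Between SOX2, a stem cell transcription factor, and ATP11B, a lipid flippase, the 2 bins averaged 11.4% ± 3.05 in KO clones (SD, n = 4) and 0% in both parental libraries. There the dTAG clones averaged 5.08% ± 2.64 at day 7, 5.69% ± 4.27 at day 14 and 3.24% ± 0.726 at day 21, against 0.144% ± 0.288 at day 0 (SD, n = 4 each). Between MKI67, the Ki-67 proliferation antigen, and MGMT, a DNA repair enzyme, coverage was 12.5%, 7.76%, 7.00% and 5.08% in the KO libraries and 0.930% and 0.844% in the KO parental libraries.

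**Figure D3:**
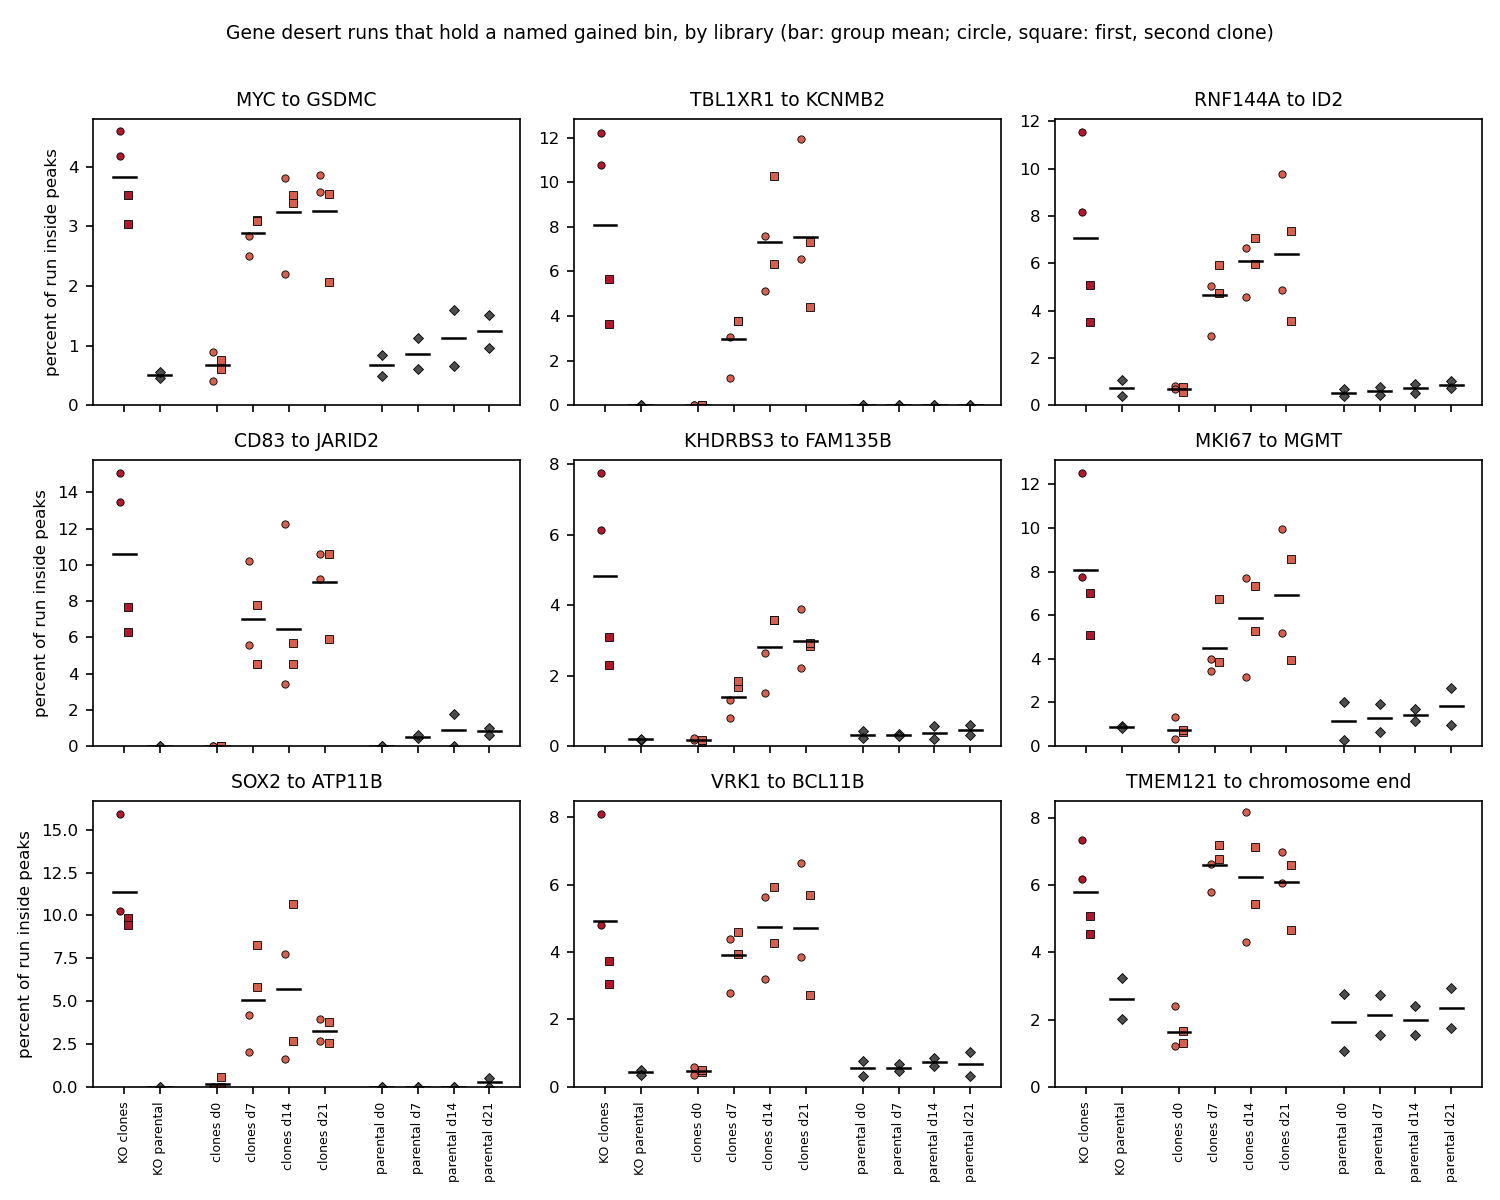
Percent of each of 9 desert runs inside peaks, by library, with bars at group means. Each panel is a run named by its flanking coding genes, and the groups from left to right are KO clones, KO parental, dTAG clones at days 0, 7, 14 and 21 (d0 to d21), and the dTAG parental line at the same days; in the RNF144A to ID2 panel the clones average 6.40% at day 21 and 0.699% at day 0.

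The run from TMEM121 to the end of chromosome 14 (106050001 to 106900000) holds variable segments of the immunoglobulin heavy chain locus, which are not counted as protein-coding genes here. All 34 of its bins overlap such segments. The t(4;14) translocation of KMS-11 involves this locus. B lineage cells also rearrange and can delete parts of it, and copy number was not measured. It was at 7.34%, 6.19%, 5.08% and 4.53% in the KO libraries and 3.25% and 2.00% in the KO parental libraries. At day 7 it was already at 6.60% ± 0.592, and at day 21 at 6.08% ± 1.01, against 1.64% ± 0.552 at day 0 (SD, n = 4 each). Of its 28 tested bins limma called 15 gained at day 21 and 3 in KO clones, beside 51.6% and 37.3% of all tested bins. Without all bins that hold receptor segments (33 members) the KO share difference was 0.746 points, against 0.752 points with them.

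Some deserts carried the mark while NSD2 was present. The run with the highest mean in the untreated parental and clone libraries lay on chromosome 22 (47700001 to 47975000), between TBC1D22A and TAFA5, a secreted brain protein. It was at 7.28%, 5.69%, 12.0% and 9.08% in the KO libraries and 12.9% and 6.64% in the KO parental libraries, which overlap. All 11 bins had a peak in all 4 KO libraries and in at least 1 parental library. At day 21 it was at 4.73% ± 1.58, and at day 0 at 10.6% ± 4.10 (SD, n = 4 each). The dTAG parental line was at 10.4% ± 6.73 at day 21 and 6.42% ± 4.61 at day 0 (SD, n = 2 each). Its bin at 47825001 to 47850000, in the lncRNA gene EPIC1, was called lost at day 21, with 1.86%, 6.57%, 4.02% and 0% at day 21 and 23.8%, 6.98%, 10.2% and 16.7% at day 0 (limma adjusted p = 0.00827). That call ended without clone 8 day 0 replicate 1 (adjusted p = 0.067).

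Losses were few. The bin at 135025001 to 135050000 on chromosome 11 lies beyond B3GAT1, the enzyme that makes the CD57 epitope. Its run (134925001 to 135100000) is at the end of the chromosome, and the placing of reads there was not checked. The bin was at 0% and 0% in KO clone 3, 8.5% and 9.23% in KO clone 12, and 14.6% and 17.9% in the KO parental line. At day 21 it was at 0% in all 4 libraries, and at day 0 at 22.0%, 5.17%, 17.1% and 8.30% (limma adjusted p = 0.00199). The KO call (adjusted p = 0.0202) was lost without either parental library. The dTAG parental line kept 16.8% and 7.72% at day 21 and had 9.76% and 4.72% at day 0.

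Between TBX3, a developmental transcription factor, and MED13L, a Mediator subunit, the bin at 115200001 to 115225000 on chromosome 12 had no peak in the dTAG clones from day 14 on. The dTAG clones were at 5.64% to 6.59% at day 7 and at 0% in all libraries at days 14 and 21, against 8.84%, 2.76%, 7.32% and 10.7% at day 0 (limma adjusted p = 0.00474 at day 21). In the KO comparison it was at 0%, 0%, 1.38% and 3.71% in the KO libraries and 13.8% and 4.54% in the KO parental libraries (adjusted p = 0.016). The dTAG parental line was at 12.5% and 7.90% at day 21 and 14.1% and 6.25% at day 0.

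Several of the other losses bordered centromeres or acrocentric short arms, where similar sequence is repeated and the placing of reads is uncertain. The bin at 22400001 to 22425000 on chromosome 17, between KCNJ18, a potassium channel gene, and WSB1, was at 1.64% ± 2.30 at day 21 and 9.35% ± 2.41 at day 0 (SD, n = 4 each, limma adjusted p = 0.00878). Its KO libraries averaged 3.13% ± 4.04 (SD, n = 4), against 12.8% ± 5.43 over both KO parental libraries (adjusted p = 0.0111). At 11050001 to 11075000 on chromosome 22, 4453 kb from the nearest coding gene, the olfactory receptor gene OR11H1, all 4 day 21 libraries were at 0%, against 8.02%, 4.08%, 7.72% and 4.74% at day 0 (adjusted p = 0.00253). Between ALG10 and ALG10B, paired genes of protein glycosylation on either side of the centromere of chromosome 12, a bin was at 1.01% ± 0.956 in KO clones and 12.1% ± 0.925 in the KO parental line (adjusted p = 0.00731). The bins between POTEA and LOC105375816 on chromosome 8 and, away from a centromere, between GOT2 and CDH8 on chromosome 16 fell by 10.8 and 7.97 points in KO clones (adjusted p = 0.0277 and 0.0236). Leaving out KO parental replicate 1 ended the KO calls in the KCNJ18, POTEA and GOT2 runs (adjusted p = 0.211, 0.28 and 0.199), and leaving out replicate 2 ended that in the ALG10 run (0.074).

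**Figure D4:**
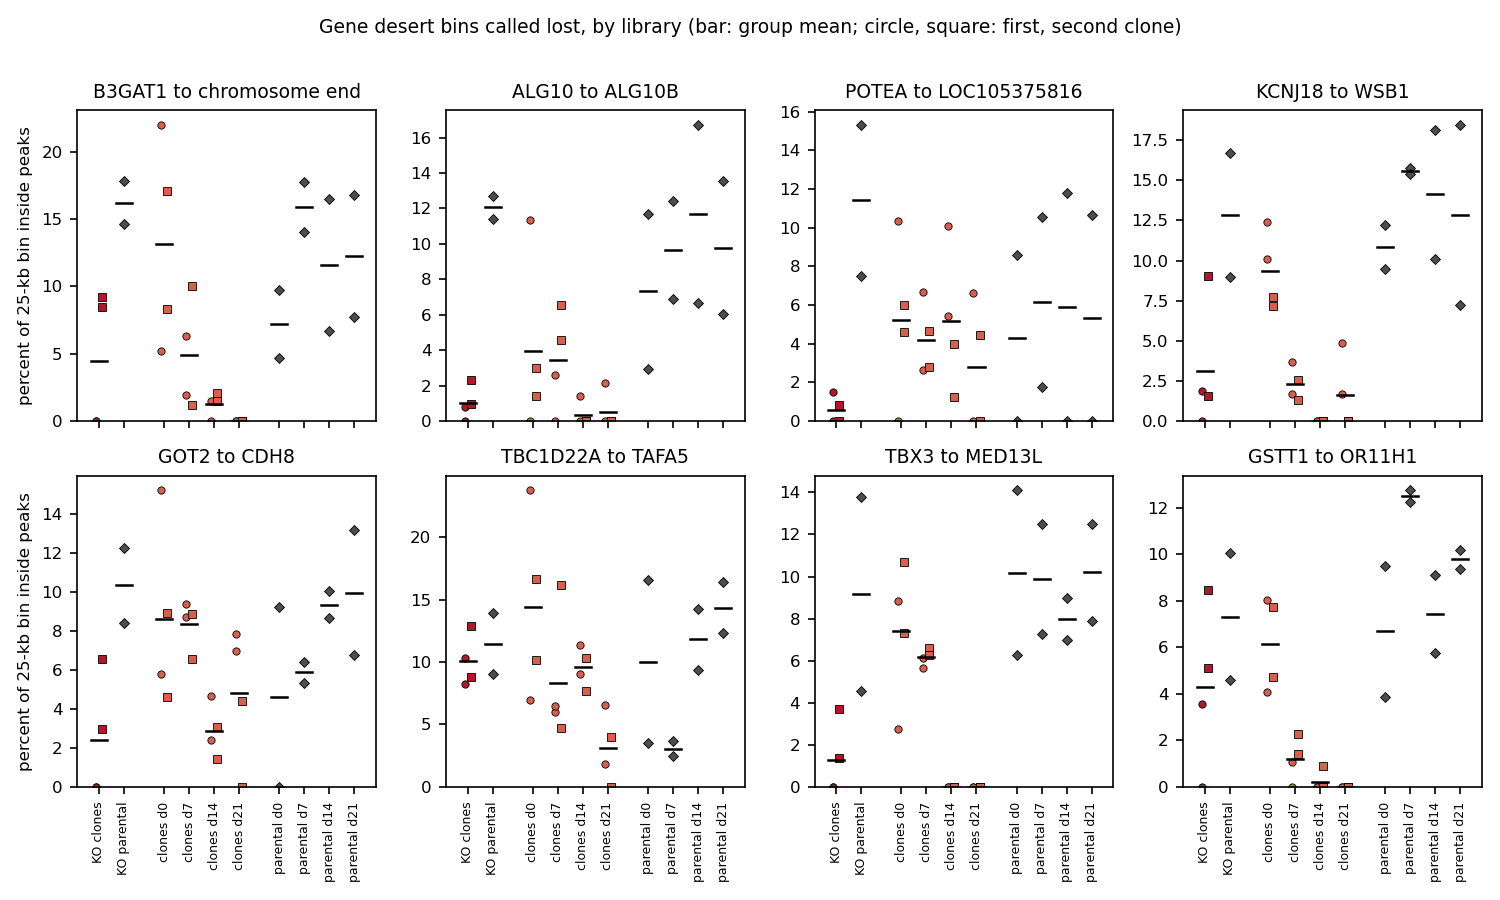
Percent of 8 desert bins inside peaks, by library, for the bins named as lost in the KO comparison or at day 21, with bars at group means and groups ordered as KO clones, KO parental, dTAG clones at days 0 to 21, dTAG parental line at days 0 to 21. In the TBX3 to MED13L panel all libraries of the dTAG clones are at 0% at days 14 and 21, while the dTAG parental line stays between 6.25% and 14.1%.

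The longest runs held few members. The longest, 18.0 Mb on the short arm and centromere of chromosome 13, had 7 members in 719 bins. The next 3, on chromosomes 14, 9 and 15, had none. Such stretches are largely repeats and gaps of the assembly, and they add to the 9014 position bins without a peak. On acrocentric short arms the left border of a run can come from a gene that RefSeq places on an alternate sequence, as for GSTT1 on chromosome 22, which can only have removed bins from the choice.

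Members were spread unevenly over chromosomes. Bins with a peak were 41.7% of desert bins on chromosome 8 and 39.3% on chromosome 3, and 5.61% on chromosome 22. Chromosome 2 had the most covered length in KO clones, 0.160 Mb against 0.0175 Mb in the KO parental line. On chromosome 15 the values were 0.0364 Mb and 0.000859 Mb. In the KO comparison chromosome 22 alone went the other way, with 0.0391 Mb in KO clones and 0.0481 Mb in the KO parental line, and it had 0.0193 Mb at day 21 and 0.0378 Mb at day 0. At day 21 chromosome 16 was lower too, with 0.00596 Mb at day 21 and 0.00892 Mb at day 0.

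Most members overlapped no lncRNA gene. An lncRNA gene overlapped 33.2% of the members, 11.8% of the desert bins without a peak and 31.2% of bins with a peak elsewhere on these autosomes. A pseudogene overlapped 8.29% of the members, 3.89% of desert bins without a peak and 13.9% of the other bins with a peak. Bins without a peak include assembly gaps and centromeres, which hold few annotated genes, and these shares were not tested.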

How the data were processed

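Per the submitters' processing notes the authors used MACS3 3.0.2, fastp 0.24.0 and Bowtie2, with Picard, SAMtools, ChIPseeker 1.42.1, deepTools 3.5.1 and DESeq2, and the build hg38. Roles, order, calling options and any use of IgG libraries are not given in the sources. The deposited lists hold 1 library each. The deposited score equals 10 times −log10 q without its decimals. The authors' fold column is a ratio of enrichment over the caller's background, and the deposited −log10 p and −log10 q belong to single peaks. Depth is unknown, and the background pileup of the caller was estimated from fold and −log10 p of the shortest 2% of peaks. H3K27ac, H3K4me3 and IgG libraries (10) were not analysed here.

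Peaks were merged per library, and bins of 25 kb scored by percent covered. Distances came from 19974 protein-coding RefSeq genes (GRCh38.p14). Covered percent was tested with limma 3.58.1 (R 4.3.3), fitting a mean for each group over 30 libraries (15 residual degrees of freedom), eBayes with trend and Benjamini-Hochberg adjustment over all tested bins. It was first run on simulated data with a normal spread, equal in all groups of a bin, which does not cover groups at 0%. Its p measures how the libraries within each group differ, not how clones differ, and groups at 0% have none, which can make it too small. Exact permutation tests, two-sided, compared library values over all regroupings. They did not pair libraries by clone, so their p does not measure how clones differ either. Named bins were the 8 with the largest gain, above every library of the other group and 1 per run, and up to 5 with the largest loss, for each comparison. Named runs were the 10 longest, those that hold a named bin and the 5 highest with NSD2, of which 1 is not reported here. Members, lists and tests were chosen with earlier results of these data known. Alternatives covered peak strength, list length, joining of peaks, bin size, distance, filter, scaling, pileup, samples in the fit, the replicate block and each library left out.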

Additional observations from a re-analysis of the deposited data

Results flagged for a closer look

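In the bin called gained at day 21 between MYC and GSDMC, 1 library of the day 0 group stood apart, with 5.70% inside peaks in clone 11 day 0 replicate 1 and 0% in the other 3. In the bin between MKI67 and MGMT, clone 8 day 0 replicate 1 had 1.27% and the other 3 had 0%. In the bin between RNF144A and ID2, clone 11 day 0 replicate 1 had 1.28% and the other 3 had 0%. Chance sets a sample apart by this measure in about 1 in 20 groups of graded values. That rate does not hold here, since any value above 0% stands apart from 3 at 0%.

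The change at day 21 differed between the dTAG clones and the dTAG parental line in 13 desert bins that were higher and 1 that was lower, by limma's test of the difference at adjusted p under 0.05. These were among 551 tested members, beside 3.39% higher and 0.0582% lower over all tested bins. As given above, the higher count rests on each library of the parental line.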

How the results depend on the processing

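The KO differences in share and covered percent kept their direction under every alternative run, but not their size. The covered difference, 0.339 points with all peaks, was 0.00863 points at a −log10 q of 5 (exact permutation p = 0.733). It was 0.0114 points at fold of at least 4 (exact permutation p = 0.333) and 0.0239 points with lists of equal length (exact permutation p = 0.133). With only peaks whose −log10 q reached 5, the dTAG clone differences in covered percent of desert length were 0.00818, 0.00221 and 0.00379 points at days 7, 14 and 21, and the share difference was 0.0883 points at day 7 (exact permutation p = 0.0286), 0.0614 at day 14 and turned to -0.00416 at day 21. At fold of at least 4 the covered differences were 0.00897, 0.00535 and 0.00391 points, the share differences were 0.279, 0.345 and 0.182 points (exact permutation p = 0.0286 at days 7 and 14), and that of the dTAG parental line turned to -0.0866 points. With lists of equal length the covered differences were 0.00340, 0.0105 and 0.00694 points, the share differences 0.0353, 0.114 and 0.0756 points, and the dTAG parental line turned to -0.00211 (covered) and -0.0260 points (share). At a distance of 1000 kb the share difference at day 7 was 0.0223 points. Apart from the 3 with p = 0.0286, none of these had an exact permutation p under 0.05, and the cause was not tested.

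Counts of gained and lost bins moved as follows. At 250 kb, KO had 882 gained and 19 lost and day 21 had 860 and 25. At 1000 kb these were 63 and 2, and 47 and 5. The −log10 q limit of 5 left 0 and 1, and 0 and 0. The fold limit of 4 left 0 and 1, and 0 and 3. With lists of equal length KO had 12 and 4, and day 21 gained 11. Bins of 100 kb gave 84 and 7, and 85 and 6, with fewer bins. Joining peaks over 3 kb gave 7 lost at day 21. No filter gave 653 and 23 in KO. Scaling to a common called length gave 33 lost in KO and 56 at day 21. The pileup covariate gave 25 lost in KO, and 163 gained and 40 lost at day 21. Only the compared groups gave 143 and 7 in KO.

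Of the change in the clones minus that in the parental line, higher and lower counts were 46 and 2 at 250 kb, 39 and 4 in bins of 100 kb, 27 and 24 after scaling, 21 and 18 with the pileup covariate, 54 and 2 with only the compared groups, and 7 higher without a filter. They were 0 and 0 at 1000 kb, at either peak limit, with lists of equal length, with peaks joined and in bins of 10 kb.

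The labels do not say what a replicate number shares. Over all tested bins, deviations of same-numbered libraries correlated at 0.134 to 0.198 in the KO comparison, 0.0480 to 0.396 in the dTAG clones and 0.679 in the dTAG parental line. Over the tested members they correlated at 0.0411 to 0.0970 in the KO comparison, -0.0161 to 0.312 in the dTAG clones and 0.741 in the dTAG parental line. Replicate numbers thus deviated together most in the dTAG parental line, and weakly or unevenly in the KO comparison and the clones. With the replicate block, permuted within numbers, the covered differences of 0.128, 0.196 and 0.201 points and the share differences of 0.166, 0.376 and 0.345 points at days 7, 14 and 21 had p = 0.0556 (exact permutation), the smallest possible. The replicate block gave 30 higher and 7 lower bins for the clones minus the parental line, and left the gained and lost counts within 1.5 times.

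Leaving out 1 library, the covered difference was 0.268 to 0.403 points for KO, 0.116 to 0.142, 0.159 to 0.235 and 0.163 to 0.230 at days 7, 14 and 21, and 0.000756 to 0.0877 in the dTAG parental line. Without any 1 day 0 library the day 14 calls were lost, and without 3 of the 4 the day 21 call of covered percent (exact permutation p = 0.0571). The share difference was 0.669 to 0.838 points for KO, 0.140 to 0.185, 0.307 to 0.432 and 0.306 to 0.381, and 0.0384 to 0.177 in the dTAG parental line. The gained and lost counts were 130 to 263 and 2 to 12 for KO, 171 to 276 and 9 to 20 for day 21, and 0 to 0 in both directions for the dTAG parental line. For the clones minus the parental line they were 0 to 66 higher and 0 to 4 lower, with 0 higher without any library of the parental line, 62 without clone 8 day 21 replicate 2, 66 without that of clone 11, 7 without clone 11 day 21 replicate 1 and 1 without any day 0 library of the clones. Of the values of named bins, 142 kept their call under the other alternatives and 19 lost it, and 156 kept and 12 lost it with 1 library left out. Depth limits what a bin at 0% can show. Leaving out receptor segment bins, and the test of the clones minus the parental line, were chosen after seeing the data.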

Other observations

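Runs without a named bin also added length. In KO clones the run between TENM4, a transmembrane teneurin of neural wiring, and FAM181B added most of all runs, 0.0720 Mb, and it added 0.0276 Mb at day 21. Its mean share inside peaks was 3.31% ± 1.39 over 4 KO clone libraries, against 0.148% ± 0.0347 over 2 libraries of the KO parental line (SD). The run between LSAMP and IGSF11, both genes of neural cell adhesion, added 0.0492 Mb in KO clones and 0.0213 Mb at day 21. These runs were chosen after their values were seen.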
